A study of Mus musculus and Homo sapiens with 6 samples.

Results

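Strong open chromatin regions that lie away from gene ends and close to one another were examined in NMuMG, a line of mouse mammary gland epithelial cells. The peaks of 4 ATAC-seq libraries were merged where they overlapped into 55702 regions, of which 25787 had a peak in all 4 libraries. A region is called strong here when it lay on an autosome, had a peak in all 4 libraries, reached a score of 25 or more in the library of 100000 cells, and had its centre more than 1 kb from both outer ends of every annotated gene. Chromosome 15 between 61 and 64 Mb was left out. There were 7120 strong regions, and neighbours were joined into a cluster when the gap between them was 12500 bp or less. The members described here are the 274 strong regions in the 60 clusters that held 4 or more of them, which is 3.85% of the strong regions. They were chosen by measured values (the presence of a peak in each list, the score at 100000 cells and the spacing of the regions), so their number and scores are a description.

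ATAC-seq uses the Tn5 transposase to insert adapters into accessible DNA, and the study varied the number of cells put into the protocol. All libraries came from NMuMG cells at passages under 10, labelled with a time of 0 h, lysed in a buffer with Triton X-100 and amplified with 8 PCR cycles. There was 1 library each of 25000, 50000, 75000 and 100000 cells, without replicates, and neither cell numbers nor groups of regions were tested against each other. The study's 2 samples of MDA-MB-231, a line from a human breast cancer, are not analysed here. Each library is represented by the authors' list of 38878 to 45530 peaks, each with a score of 8 or above. The score is the authors' own value for a peak and ranks peaks within a list, and the sequencing depth behind it is unknown. Unless stated otherwise, 4 scores in a row are those of the libraries of 25000, 50000, 75000 and 100000 cells, in this order. The mean score percentile of a region is the share of a list's peaks at or below the region's highest score, averaged over the 4 lists. The labelled line was checked against marker genes: 4 of 10 epithelial markers (Cdh1, Krt8, Krt18 and Elf3) had a region at a gene end in all 4 libraries, against 1 of 7 fibroblast markers (Col1a1), 1 of 6 blood markers (Spi1) and none of 5 endothelial, 4 neuronal and 3 muscle markers. Epcam, Cldn3, Cldn4, Cldn7, Esrp1 and Grhl2 were the epithelial markers without one. The epithelial count is no higher than the share over all autosomal coding genes, 43.6%, so this check does not set the line apart as epithelial. None of these markers lay in or next to a cluster, and a region at a gene end does not measure expression.

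Gene regulation in mammals draws on promoters, which lie at transcription starts, and on enhancers, which can lie far from any start, often in introns or between genes. Transcription factors that bind an enhancer open its chromatin, and genes central to a cell type often have several enhancers close together, for which neighbouring sites are commonly joined by their distance. Open chromatin alone does not show that a site is an enhancer, since insulators, unannotated promoters and starts inside genes are open too.

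Some members lay over such inner starts. RefSeq windows from 250 bases before to 50 bases after a start were at hand for GRCm38.p6, and 25 of the 274 members (9.12%) overlapped one, against 8.38% of the strong regions outside the clusters. The 25 members held 30 annotated starts of 21 genes, and 27 of the 30 windows lay whole inside a member. The sequences shown are the windows at the 5 highest-ranked members with a whole window and 1 gene each. These windows describe starts under 5 members and not the DNA of members in general. Each is written 5′ to 3′ on the strand of its gene, and capitals mark CpG dinucleotides.
Lifr, chr15:7129322-7129621, plus strand: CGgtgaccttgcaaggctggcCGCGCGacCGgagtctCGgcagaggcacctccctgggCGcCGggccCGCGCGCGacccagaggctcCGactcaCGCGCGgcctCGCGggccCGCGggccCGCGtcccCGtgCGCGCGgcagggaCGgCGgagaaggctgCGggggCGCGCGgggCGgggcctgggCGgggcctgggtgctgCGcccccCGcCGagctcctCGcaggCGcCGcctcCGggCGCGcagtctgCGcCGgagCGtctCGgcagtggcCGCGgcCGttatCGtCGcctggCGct
Slc29a2, chr19:5023756-5024055, plus strand: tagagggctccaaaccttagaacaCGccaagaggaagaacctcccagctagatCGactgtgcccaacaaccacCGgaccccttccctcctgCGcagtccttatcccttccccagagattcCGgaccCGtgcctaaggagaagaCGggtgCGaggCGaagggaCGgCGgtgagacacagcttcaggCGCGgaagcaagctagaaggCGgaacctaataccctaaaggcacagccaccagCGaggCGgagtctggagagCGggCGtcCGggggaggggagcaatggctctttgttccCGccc
Mideas, chr12:84193966-84194265, minus strand: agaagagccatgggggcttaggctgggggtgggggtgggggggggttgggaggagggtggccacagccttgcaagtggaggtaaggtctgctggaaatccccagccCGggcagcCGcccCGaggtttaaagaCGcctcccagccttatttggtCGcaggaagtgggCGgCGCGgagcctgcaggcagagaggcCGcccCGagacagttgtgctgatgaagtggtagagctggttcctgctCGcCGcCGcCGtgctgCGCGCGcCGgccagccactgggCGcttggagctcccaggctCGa
Lmna, chr3:88503303-88503602, minus strand: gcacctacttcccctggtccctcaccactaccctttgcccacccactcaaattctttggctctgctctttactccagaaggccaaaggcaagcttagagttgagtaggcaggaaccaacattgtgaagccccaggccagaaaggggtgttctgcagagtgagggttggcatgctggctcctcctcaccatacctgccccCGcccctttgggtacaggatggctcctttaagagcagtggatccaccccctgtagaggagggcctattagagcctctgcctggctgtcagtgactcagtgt
Plxnb2, chr15:89180739-89181038, minus strand: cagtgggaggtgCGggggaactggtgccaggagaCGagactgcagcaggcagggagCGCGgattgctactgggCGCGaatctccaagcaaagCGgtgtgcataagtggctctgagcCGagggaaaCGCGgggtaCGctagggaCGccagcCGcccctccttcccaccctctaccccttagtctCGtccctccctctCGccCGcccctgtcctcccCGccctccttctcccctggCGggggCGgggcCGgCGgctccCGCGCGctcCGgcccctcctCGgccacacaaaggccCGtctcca
The Lifr window had a GC content of 81.3% with 53 CpG dinucleotides. The Plxnb2 window had 70.3% with 27, the Mideas window 68% with 20 and the Slc29a2 window 61.7% with 20. The Lmna window stood apart with 1 CpG dinucleotide at a GC content of 56.3%. It was also the only one of the 5 that held any of 12 short factor motifs searched on both strands: TGACTCA, a form of the AP-1 motif TGANTCA, at base 290, and TTGGCA, part of the NFI motif, at base 165. TGANTCA was in 7.06% and TTGGCA in 13.1% of the 20085 windows of autosomal protein-coding genes. A match is a description of the letters and shows no binding.

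The 2 mature forms of miR-21a, a microRNA studied widely in epithelial tumours, and miR-1953 were the microRNAs annotated inside cluster spans. Capitals mark the seed, bases 2 to 8, through which a microRNA pairs with its targets.
miR-21a-5p, chr11:86584120-86584141, minus strand: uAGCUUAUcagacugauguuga
miR-21a-3p, chr11:86584082-86584103, minus strand: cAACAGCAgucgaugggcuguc
miR-1953, chr2:151967581-151967602, minus strand: uGGGAAAGuucucaggcuucug
The 3 seeds all differ. No member covered these sequences: the nearest edge of a member lay 2410 bp from miR-21a-5p and 4581 bp from miR-1953.

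The clusters spanned 6.1 to 46.7 kb with a median of 17.75 kb and 1192.7 kb in all. Of the 60 clusters, 40 held 4 members, 12 held 5, 4 held 6, 3 held 7 and 1 held 9. Members covered between 9.44% and 46.9% of a span, with a median of 20.1%, and the gap between neighbours had a median of 3725 bp over 214 gaps. The widest gap inside a cluster was 12300 bp, in Fhl2. The narrowest gap that was not joined at the edge of a cluster was 12650 bp, between the cluster beside Malat1 and that of Neat1, so that a slightly wider limit would make 1 cluster of them. The other strong regions were mostly alone: 5104 had no neighbour within the limit, 673 pairs held 1346 and 132 groups of 3 held 396. The map of the largest clusters shows how members were spaced in each.

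**Figure D1:**
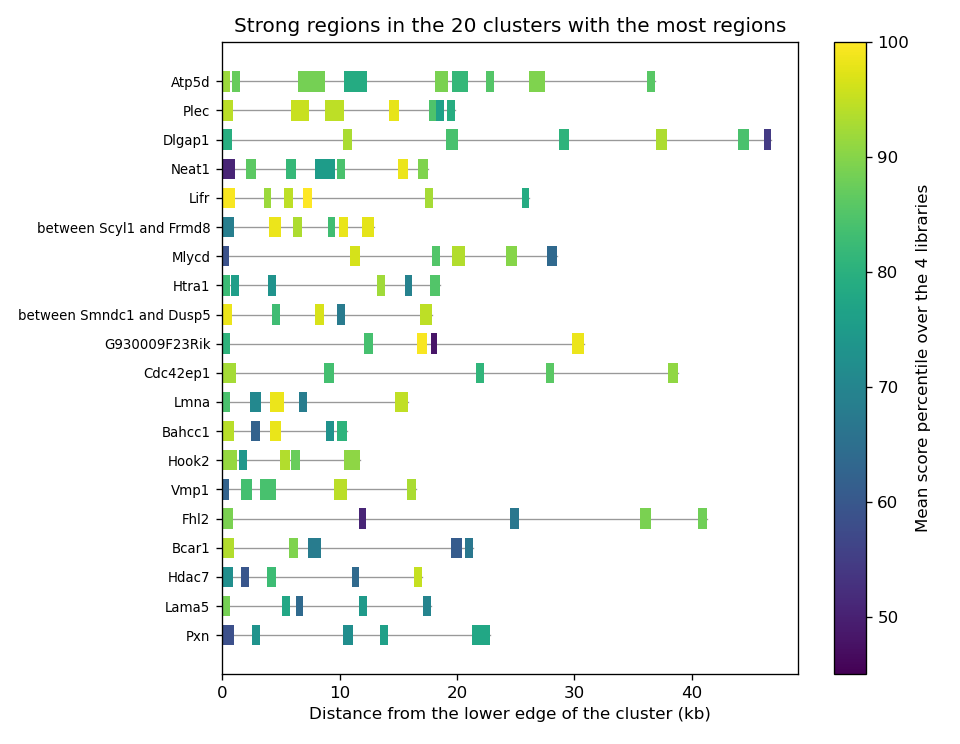
Positions of the strong regions in the 20 clusters with the most regions, as the distance in kb from the lower edge of each cluster; each block is a member drawn at its width and coloured by its mean score percentile over the 4 libraries. The Atp5d cluster holds 9 members over 36.85 kb and the Dlgap1 cluster 7 over 46.7 kb, and blocks of high and low percentile stand side by side in most clusters.

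The largest number of members lay in the cluster around Atp5d, Midn, Cirbp and Fam174c on chromosome 10 (80141101 to 80177950), where genes are densely packed. Atp5d encodes a subunit of the mitochondrial ATP synthase, Midn the nuclear protein midnolin and Cirbp a cold-inducible RNA-binding protein. The 9 members had median scores of 35, 50, 38 and 42. Members lay over starts inside Atp5d, Midn and Cirbp, and 4 of the 9 lay outside annotated genes. The nearest coding genes were Cbarp, 0.746 kb below, and Efna2, a gene for an ephrin ligand, 1.53 kb above ("below" and "above" mean lower and higher coordinates on the chromosome).

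Several clusters lay in genes for the cytoskeleton, cell adhesion and the nuclear lamina. These genes are grouped here by what their products do, and how often such genes occur among all coding genes was not counted for this grouping. Plec, which encodes plectin, a linker of intermediate filaments to cell junctions, held 7 members within 19.8 kb of chromosome 15 (76189651 to 76209450). Its scores were 43, 57, 57 and 99 at the first member in order of position, 62, 65, 56 and 66 at the second, 53, 67, 48 and 75 at the third and 58, 95, 88 and 87 at the fourth. These 4 had mean score percentiles of 94.3 to 97.9. The 3 further members were lower and more mixed, at 34, 45, 44 and 29, then 19, 24, 44 and 37, then 42, 30, 20 and 42. The whole cluster lay inside Plec, with Parp10, 23.5 kb above, as the closest coding neighbour.

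Lmna, the gene of the lamins A and C of the nuclear lamina, held 5 members within 15.8 kb of chromosome 3 (88488201 to 88504000). The member over an annotated inner start at 88493312 scored 80, 100, 81 and 78. The member over the start whose window is printed above scored 48, 55, 82 and 66. The members between and before them were lower: 25, 39, 41 and 47, then 22, 17, 25 and 40, then 24, 29, 16 and 25. In Lmna the members over starts thus ranked above the others in each of the 4 libraries. Tmpo, whose lamina-associated polypeptides bind lamins, held 3 members of a cluster of 4 with median scores of 29.5, 46, 49.5 and 45.5, and the fourth lay outside the gene.

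Focal adhesions tie actin to the matrix through integrins, and their scaffold genes Pxn (paxillin) and Bcar1 (p130Cas) each had a cluster of 5 members. Pxn members scored 22, 13, 15 and 26 for the first, 40, 24, 18 and 29 for the second, 29, 20, 22 and 32 for the third, 29, 29, 25 and 29 for the fourth and 31, 47, 21 and 28 for the fifth. All 5 lay inside Pxn on chromosome 5 (115521301 to 115544150), and the nearest coding neighbour was Rplp0, a ribosomal protein gene, 15.3 kb above. In Bcar1 on chromosome 8 (111726001 to 111747350) the 3 members inside the gene scored 51, 61, 57 and 54, then 36, 60, 39 and 50, and 21, 26, 19 and 25. The remaining 2, inside the gene Gm51589, scored 13, 26, 17 and 25, and 9, 30, 40 and 37. The last of these varied most in rank of all members, from the 20.8th percentile at 25000 cells to the 86.9th at 75000 cells. Bcar3, a gene for a protein that binds p130Cas, held 4 members with median scores of 22, 27.5, 31.5 and 29.5.

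Fhl2, a gene for a LIM-domain adaptor found at focal adhesions and in the nucleus, held 5 members spread over 41.3 kb of chromosome 1 (43127851 to 43169150). They scored 28, 47, 62 and 52, then 17, 14, 10 and 25, then 19, 21, 20 and 30, then 32, 57, 49 and 44, and 42, 59, 30 and 49. The second was near the lower limit of the list at 75000 cells, and the fourth lay over an inner start. Ahnak, which encodes a very large scaffold protein at the cell membrane, had 4 members on chromosome 19 (8982551 to 8998050), 2 of them inside the gene. Ahnak scores were higher: 75, 81, 88 and 97, then 62, 70, 49 and 43, then 26, 27, 17 and 38, and 72, 87, 69 and 63. Plxnb2, a semaphorin receptor gene, held 4 members with medians of 34.5, 40, 50 and 52.5, and 2 of them lay over annotated starts. Ralgds, which encodes an exchange factor for the Ral GTPases, held 4 members on chromosome 2 (28517051 to 28533700) with a mean score percentile of 92.0, the fifth highest of the clusters. They scored 73, 85, 80 and 66, then 48, 72, 65 and 60, then 88, 78, 75 and 86, and 27, 25, 41 and 29 over an inner start. Cdc42ep1, a gene for an effector of the small GTPase Cdc42, had 5 members with medians of 33, 51, 34 and 51, of which 4 lay outside genes, between Card10 and Cdc42ep1.

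Lama5 and Itgb6 encode a laminin chain of the basement membrane and an integrin subunit of epithelia that takes part in the release of active TGF-beta. Lama5 had 5 members on chromosome 2 (180215801 to 180233600), 3 inside the gene, with medians of 23, 30, 26 and 28, and the highest score of its members was 60, at 100000 cells. Itgb6 held all 4 of its members within 15.15 kb of the same chromosome (60688801 to 60703950). They scored 55, 57, 63 and 67, then 26, 23, 36 and 33, then 38, 52, 28 and 31, and 28, 45, 43 and 51. Wwc1, whose product Kibra acts upstream of the Hippo kinases, held 3 members of a cluster of 4 with medians of 36, 31, 29 and 43.

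Fosb encodes an AP-1 subunit and had 4 members on chromosome 7 (19307651 to 19327650), 1 inside the gene and 3 above it, outside genes. The member inside scored 20, 26, 32 and 39. The next 2 scored 69, 64, 93 and 72, and 80, 68, 71 and 86, and the last 37, 37, 28 and 39. The 2 middle members ranked above the one inside Fosb in each library, and the last was above it at 25000 and 50000 cells, below it at 75000 and equal to it at 100000. Junb, a further AP-1 subunit gene, lay 0.653 kb below the Hook2 cluster on chromosome 8 (84979401 to 84991150). Of its 5 members, 4 lay between Junb and Hook2, at 50, 60, 50 and 41, then 47, 21, 18 and 34, then 42, 55, 62 and 70, and 31, 47, 61 and 36. The fifth, over a start inside Hook2, scored 42, 62, 34 and 65. Hook2 encodes a microtubule adaptor, and which of the neighbouring genes, if any, these regions act on was not measured.

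Smad7, the inhibitory SMAD that limits TGF-beta signalling, held 3 members of its cluster, and Gm20544 held the fourth. In order of position the 4 scored 28, 25, 23 and 37, then 47, 68, 42 and 50, then 34, 36, 37 and 35, and 24, 50, 36 and 57. Between Smndc1 and Dusp5 on chromosome 19 (53403951 to 53421800), 5 members lay outside any gene at 87, 103, 76 and 83, then 34, 30, 37 and 39, then 53, 77, 77 and 78, then 25, 21, 17 and 29, and 47, 60, 59 and 72. Dusp5, a phosphatase that inactivates ERK, lay 107 kb away and Smndc1, a splicing factor gene, 13.3 kb away. Between Tha1 and Socs3, an inhibitor of cytokine receptor signalling, 4 members outside genes had medians of 43, 54.5, 43.5 and 51.5, with Socs3 15.8 kb above. Members between Klf3, a Kruppel-like repressor gene, and Tlr1 had medians of 29.5, 38.5, 35.5 and 39.5.

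Neat1, the RNA scaffold of nuclear paraspeckles on chromosome 19, was the non-coding gene with the most members inside it. Its cluster (5831351 to 5848850) had 7 members, 5 inside Neat1 and 2 between it and Frmd8. Inside the gene the scores were 24, 12, 9 and 25, then 38, 38, 49 and 34, then 22, 41, 33 and 49, then 16, 33, 30 and 42, and 34, 35, 43 and 35. The first member outside reached 100, 111, 94 and 69, and the second 35, 41, 47 and 62. A cluster of 6 (5805801 to 5818700) lay next to it, 3.13 kb above Malat1, another abundant nuclear RNA, and inside no gene. Its members scored 15, 27, 23 and 32, then 80, 81, 101 and 87, then 51, 58, 60 and 49, then 27, 41, 38 and 37, then 80, 97, 60 and 122, and 57, 80, 89 and 95. Together these neighbouring clusters held 13 members. Of the 20 largest clusters, that of G930009F23Rik on chromosome 15 was the other one that overlapped a non-coding gene and no coding gene. Its strongest members, at 87, 114, 124 and 114 and at 79, 90, 92 and 77, lay outside the gene.

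Vmp1, a gene needed for autophagy, had 5 members on chromosome 11 (86577051 to 86593600), with Mir21a between the third and the fourth. They scored 15, 21, 18 and 28, then 31, 46, 38 and 31, then 29, 43, 37 and 38, then 35, 59, 87 and 91, and 45, 63, 54 and 55. The 2 inside Vmp1 were the highest in each of the 4 libraries. Mcl1, a survival gene of the BCL2 family, had a cluster of 4 members with 1 over a start inside the gene, at 43, 46, 62 and 49, and 3 outside it. A cluster of 4 between Adamtsl4 and Ecm1 lay 24 kb above that of Mcl1. Its members scored 50, 45, 52 and 67, then 44, 49, 47 and 44, then 51, 70, 71 and 54, and 81, 73, 66 and 78, and its mean score percentile of 93.7 was the highest of any cluster but that of Fyb. Htra1, a secreted serine protease gene, held 6 members with medians of 27, 29.5, 30.5 and 36, and 1 of them passed 50 in 3 of the libraries.

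Chromatin regulators and clock genes were among the coding genes that held members. Bahcc1, whose product has a BAH domain that reads histone marks, held 5 members with medians of 40, 33, 22 and 40. Hdac7, a class II histone deacetylase gene, held 5 with medians of 28, 28, 17 and 26. Kdm6b, which removes methyl groups from lysine 27 of histone H3, held 4 with medians of 34, 45.5, 32.5 and 45. Kmt5b, a histone H4 methyltransferase gene, held 1 member of a cluster of 4, and a member outside the gene scored 142, 126, 134 and 168. Mideas, a scaffold of a histone deacetylase complex, held 4 members, of which the one over its printed start scored 76, 71, 90 and 106. Nr1d1 and Per1, both repressors of the circadian clock, had 4 members each, with medians of 29.5, 46, 32.5 and 44.5 and of 43, 50, 30.5 and 41. The Per1 cluster was the narrowest of all, at 6.1 kb.

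Genes of metabolism and transport included Mlycd and Osgin1, which share a cluster of 6, and Cpt1a and Slc29a2. Cpt1a is the gate of fatty acid entry into mitochondria and malonyl-CoA, the substrate of the Mlycd enzyme, inhibits it. All 6 members of the Mlycd and Osgin1 cluster together had medians of 47, 40.5, 49 and 36, and those at Cpt1a 40, 52, 50.5 and 51. The member inside Mlycd scored only 20, 17, 12 and 29. One in the gene Gm32006 scored 56, 69, 64 and 86, and the others lay inside Osgin1. The member over the printed start of Slc29a2, a nucleoside transporter gene, scored 86, 83, 85 and 79 and was the strongest of the 4 in the cluster it shares with Npas4 in every library.

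**Figure D2:**
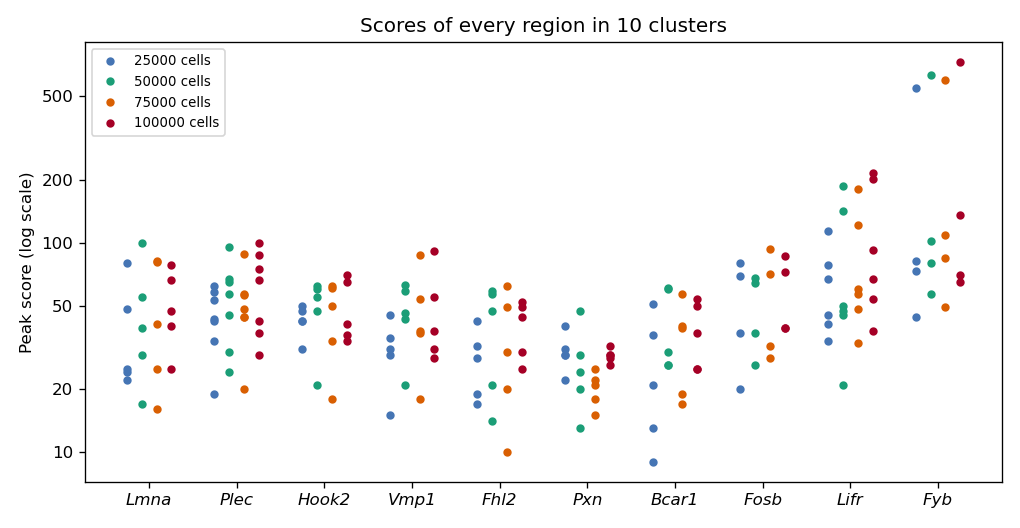
Peak score, on a log scale, of every member of 10 clusters in the libraries of 25000, 50000, 75000 and 100000 cells; each point is 1 member in 1 library. Members of most clusters spread from near the threshold to 50 or above, Pxn members stay at 47 or below, and the Fyb and Lifr clusters reach the highest values, up to 725.

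Genes whose products are best known from other cell types held members too. Dlgap1, a scaffold gene of neuronal synapses, had the widest cluster, with 7 members over 46.7 kb of chromosome 17 (70709401 to 70756100). They scored 27, 24, 34 and 46, then 36, 64, 72 and 56, then 35, 34, 32 and 45, then 22, 31, 42 and 42, then 35, 63, 66 and 70, then 32, 38, 34 and 43, and 23, 10, 14 and 27. Dlgap1 is long, and its nearest coding neighbour, Tgif1, a TGF-beta corepressor gene, lay 88.1 kb above the cluster. Npas4, an activity-dependent factor of neurons, held 1 member at 49, 54, 47 and 48. Neither gene had a region at a gene end in all 4 libraries or an annotated start under a member.

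Fyb, an adaptor gene of T cells, and Lifr, the receptor gene of leukaemia inhibitory factor, held the highest-ranked members, and both lie in 1 unusual stretch of chromosome 15. The first Fyb member (6564751 to 6565600) scored 544, 629, 599 and 725, the highest of all members in each library. The other 3 scored 73, 80, 84 and 70, then 44, 57, 49 and 65, and 82, 102, 109 and 135. The 6 Lifr members scored 78, 142, 121 and 216 at the printed start, then 45, 45, 57 and 54, then 67, 50, 48 and 92, then 113, 186, 181 and 201, then 41, 47, 60 and 67, and 34, 21, 33 and 38. Of the 10 members with the highest mean score percentile, 4 belong to these clusters, and the others lie at Kmt5b, G930009F23Rik, Fbxo31, Fam110a, Gm31718 and beside Malat1.

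Between 6.5 and 7.25 Mb of chromosome 15, limits chosen after the values were seen, regions of every strength were dense. Windows of 250 kb held 51, 56 and 81 merged regions, against 7 and 6 in the windows on either side, a median of 6 over the autosomes and a 99th percentile of 29. Of the 188 regions there, 119 had a peak in 1 library and 34 in all 4. These 34 had median scores of 50, 56, 60.5 and 74, against 20, 25, 23 and 26 for all autosomal regions found in the 4 libraries. Strong regions numbered 25 in the stretch, and 10 of them are members. The number of DNA copies per cell was not measured, so a locally higher copy number and a higher accessibility cannot be told apart. The results below are therefore also given without the stretch where it moved them.

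**Figure D3:**
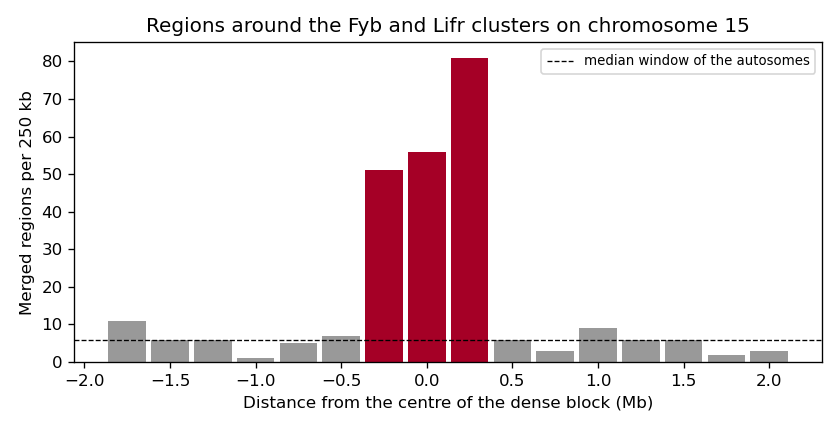
Merged regions per window of 250 kb against the distance in Mb from the centre of the dense stretch of chromosome 15. Red bars are the 3 windows of the stretch, of which the first holds the Fyb cluster and the last the Lifr cluster. Grey bars are the windows around them, and the dashed line is the median window of the autosomes. The red windows hold 51, 56 and 81 regions, and the windows beside them 7 and 6.

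Members ranked higher than strong regions outside clusters in the 3 libraries whose scores the threshold did not use. From lowest to highest, with the median between, member scores were 9, 34 and 544 in the library of 25000 cells, 9, 44 and 629 in that of 50000, 9, 39 and 599 in that of 75000 and 25, 43 and 725 in that of 100000. The medians outside clusters were 28, 34, 31 and 36. Scores of 50 or more were held by 24.5%, 40.1%, 32.5% and 38.7% of the members and by 12.53%, 22.4%, 17.7% and 23.7% of the 6846 strong regions outside. Without the dense stretch of chromosome 15 the member medians were 33.5, 43, 38 and 42. Members were slightly wider, with a median of 800 bp against 750 bp, and their median mean score percentile was 85.8 against 79.4. Both groups passed the same threshold, and scores went together across libraries, so that the 4 libraries are not independent support for one another.

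Medians were higher with more neighbours up to clusters of 4. Strong regions that stood alone had medians of 27, 33, 31 and 36, those in pairs 29, 35, 33 and 37, those in groups of 3 31.5, 38, 34.5 and 39, and those in clusters of 4 34, 45, 41 and 44. Medians in clusters of 5 or more were 34.5, 43, 38 and 42. The spread within each class was wide: the middle 50% of scores at 50000 cells ran from 25 to 46 for regions that stood alone and from 32.5 to 58 for those in clusters of 4.

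**Figure D4:**
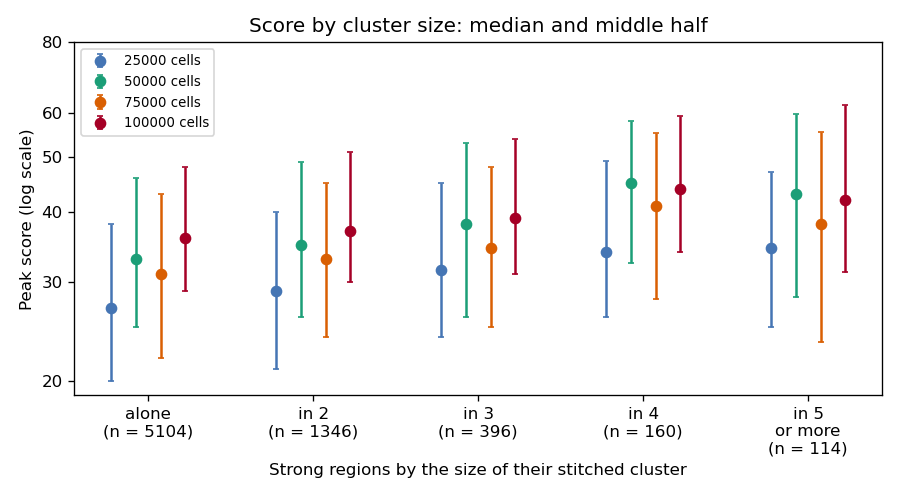
Peak score, on a log scale, of the 7120 strong regions by the size of their stitched cluster, for each library; points are medians and bars run from the 25th to the 75th percentile over regions. Medians are higher for clusters of 4 than for regions that stand alone, and the bars of all classes overlap.

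Most of the variation in score lay within clusters. After a log2 transform, 5.06%, 2.77%, 6.08% and 10.4% of the variance of the scores was estimated to lie between clusters. Without the Fyb and Lifr clusters the estimate was 0 in each library, the lowest value it can take, since negative estimates were set to 0. Of the 60 clusters, 8 had every member at 25 or more in all 4 libraries, and 187 of the 274 members reached it. Below 25 were 59 members at 25000 cells, 46 at 50000 and 54 at 75000. The libraries ranked the members much alike: Spearman's rho over the 274 members was 0.77 to 0.83 for the 6 pairs of libraries, as a description of regions that are neighbours and share the same cells. A member's percentile differed between its lowest and highest library by a median of 10.8 points, by under 10 points in 128 members and by over 40 in 10. Among the 5 that varied most were a member outside Stambpl1 at 24, 9, 29 and 29 and a Nr1d1 member at 11, 37, 19 and 30.

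The limits had members and other regions close to them on either side. At 100000 cells, 25 members scored 25 or 26, and 5 regions inside the spans that met every other criterion scored 23 or 24. There were 3 members with a centre within 1100 bp of a gene end, and 3 regions inside the spans had theirs 900 to 1000 bp from one. In all, 17 regions inside the spans met the score but lay at a gene end, and these include the 3 at 900 to 1000 bp.

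Weaker regions, which missed the score or a library and were no part of the rule, also crowded around the members. The spans held 102 of them, or 85.5 per Mb (95% exact Poisson interval 69.7 to 104), against 58.1 (52.1 to 64.6) in the 50 kb on either side, 50.6 (45.3 to 56.3) in the spans of clusters of 2 or 3 and 13.8 per Mb over the autosomes. Without the dense stretch of chromosome 15 the values were 82.2 in the spans and 50.2 beside them. The intervals cover counting error only and treat regions as independent, which neighbours are not. Dlgap1 had 8 weaker regions, Lifr 7 and Neat1 6, and 15 clusters had none. Of the 102, 40 had a peak in 1 library only, which is 39.2%, against 36.5% of weaker regions over all autosomes.

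Most members lay inside genes. Of the 274, 196 (71.5%, 95% Clopper-Pearson interval 65.8 to 76.8, counting error only) had their centre inside an annotated gene, against 64.7% of the strong regions outside clusters, and 78 lay outside genes. For protein-coding genes alone the shares were 63.1% and 56.3%. Under other limits the share of members inside any gene ran from 60.7%, with a score of 35, to 77.5%, with a gene-end distance of 2.5 kb. For those 2 limits the share outside clusters was not computed, so the difference between the groups was not examined there. Members were also nearer to gene ends, with a median distance of 7389 bp against 9291 bp. Of the 60 clusters, 25 lay wholly inside 1 coding gene, 43 overlapped exactly 1 coding gene and 5 more than 1. A further 12 overlapped no coding gene, and 6 of these no annotated gene at all: those beside Malat1, between Smndc1 and Dusp5, Adamtsl4 and Ecm1, Tha1 and Socs3, Hdac11 and Fbln2, and Klf3 and Tlr1.

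The clusters overlapped 55 protein-coding genes, 0.266% of the 20665 on autosomes, and 117 more were the nearest on one side, which makes 0.832% in or beside a cluster. A region at a gene end in all 4 libraries, a feature the rule left out, was present for 33 of the 55 genes in clusters (60%, 45.9 to 73.0) and 73 of the 117 beside them (62.4%, 53.0 to 71.2). The share was 43.6% over all autosomal coding genes and 52.3% (50.3 to 54.2) for genes that held a strong region but no cluster, so that the interval for genes in clusters takes in the value of the latter. Gene length differed between these sets, with medians of 49.96 kb in clusters, 13.0 kb beside them, 61.9 kb for genes with a strong region but no cluster and 17.5 kb over all, and its part in the shares was not tested. Gene-end regions of the genes beside clusters had median scores of 32, 43, 41 and 49, against 28, 30, 28 and 33 for the genes in clusters and 27, 36, 33 and 37 over all. Of the 22 cluster genes without such a region, 14 had an annotated inner start under a member, as did 7 of the 33 with one. No such share is given here for other genes, and the rule left regions at outer gene ends out of the members. These counts are therefore a description and do not set cluster genes apart. The 8 genes with neither were Dlgap1, Fyb, Gm31513, Hdac7, Htra1, Itgb6, Kdm6b and Npas4.

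The searched motifs were also counted in the starts of cluster genes and in starts in general. Over 76 windows of 46 genes in clusters, AP-1 (TGANTCA) was found in 3.95% against 7.06% of all windows, TEAD (GGAATG) in 18.4% against 13.4% and the E-box CAGGTG in 26.3% against 20.0%. For each of the 12 motifs the exact interval of the cluster share included the share of all windows, so that no difference was detectable with 76 windows. The interval for AP-1 ran from 0.82% to 11.1%, so the shares are not shown to be alike either. Several windows belong to the same gene and some overlap almost whole, so the intervals are too narrow. Windows of cluster genes had a median GC content of 62.2% against 57%, and a median of 17 CpG dinucleotides against 14.

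Of 16 gene lists with 274 different genes, 270 of them coding and autosomal, 13 genes (4.81%) lay in or beside a cluster, against 0.832% of all autosomal coding genes. The lists were chosen with earlier results of these data known, so the share is a description. Actin and focal adhesion genes had 3 of 19 (Pxn, Lmna and Ahnak), integrin and laminin genes 2 of 20 (Lama5 and Itgb6), TGF-beta signalling 2 of 24 (Smad7 and, beside, Tgif1) and AP-1 and immediate early genes 2 of 19 (Fosb and, beside, Junb). ERBB and growth factor signalling had Hbegf, an EGF receptor ligand 87.7 kb from the Cystm1 cluster, and Dusp5, both beside. Basal and myoepithelial genes had Acta2, 30.8 kb above the Stambpl1 cluster, and housekeeping genes Rplp0. The other 9 lists had none: epithelial junction and keratin genes, epithelial regulators, genes of the epithelial-mesenchymal transition, Hippo pathway genes, mammary luminal and milk genes, and the markers of fibroblasts, blood cells, endothelium, and neurons and muscle. A gene such as Wwc1 that acts on the Hippo pathway was not on that list.

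Members were unevenly spread over the chromosomes. Chromosome 19 held 54 members (19.7%) in 12 clusters but 6.08% of the strong regions, and 54 of its 433 strong regions were members. Chromosome 15 held 36 (13.1%) and chromosome 11 held 30, and chromosomes 4, 13, 14 and 16 held none. Of those on chromosome 15, 10 lay in the dense stretch, and without them that chromosome held fewer than chromosome 11. Strong regions were densest on chromosome 19, at 7.46 per Mb against 2.98 over all autosomes. Its regions at gene ends, which the rule left out, also scored highest, with medians of 36, 46, 43 and 48 against 25, 32, 29 and 33 on the other autosomes, and those of chromosome 4 (18, 24, 21 and 24) and chromosome 14 (19, 24, 23 and 26) were lowest. The other chromosomes without a cluster were not alike in this: chromosome 13 had medians of 23, 30, 27 and 30, and chromosome 16 had 26, 36, 33 and 38, above those of the autosomes other than chromosome 19. Over the 19 autosomes Spearman's rho between the gene-end median and the share of strong regions in clusters was 0.70, 0.52, 0.52 and 0.51 in the 4 libraries, as a description of chromosomes that share the same libraries. Between the number of strong regions per Mb and that share it was 0.86. The rule joins strong regions by their spacing, so this last value follows in part from the rule and is no separate result. How many copies of each chromosome the cells carry was not measured, and its part in the uneven spread was not tested.

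**Figure D5:**
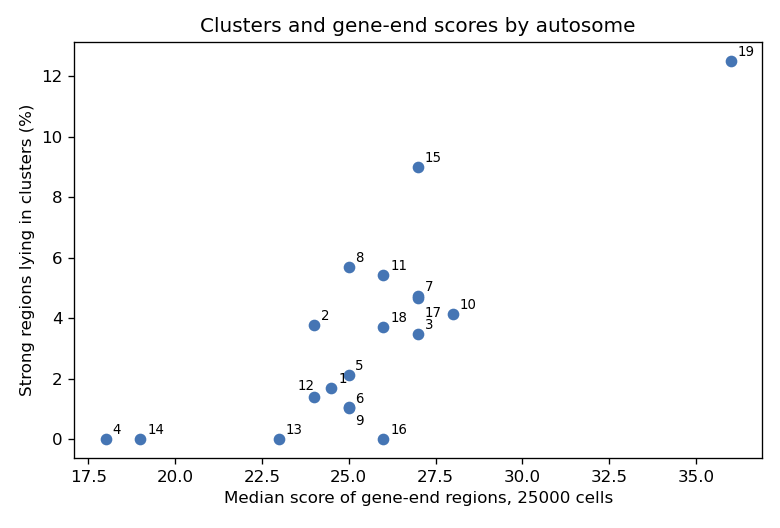
Share of strong regions that lie in clusters of 4 or more, in percent, against the median score of gene-end regions in the library of 25000 cells; each point is an autosome with its number, and of the 4 libraries this one has the highest rank correlation. Chromosome 19, with 54 of 433 strong regions in clusters, stands highest at a median of 36, and chromosomes 4, 13, 14 and 16, with medians of 18, 23, 19 and 26, have no cluster.

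With the threshold scaled on each chromosome by its gene-end median at 100000 cells, a choice made after seeing the data, there were 219 members in 49 clusters, of which 209 were members before. Chromosome 19 then held 25 members (11.4%), chromosome 15 held 30, chromosome 14 held 5 and chromosome 4 none. The 30 on chromosome 15 still included every member of the Fyb and Lifr clusters in the dense stretch. All regions of 13 clusters were lost, those of Bcar1, Hdac7, Kmt5b, Bicral, Dagla, Gldc, Myof, Ank3, Stambpl1, Tmpo, Plce1, Slc37a1 and Bcar3. The clusters of Plec, Lmna, Pxn, Hook2, Fosb, Vmp1, Fhl2 and Dlgap1 were not among those lost.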

How the data were processed

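ATAC-seq peak lists of 4 NMuMG libraries were used, and their titles gave the cell numbers. The submitters' processing notes name bedtools 2.17.0, Picard 1.107, SAMtools, Bowtie 0.12.8 and cutadapt, and the builds mm10 and hg19, of which mm10 was taken for mouse. Not given in the sources used here are the peak caller's settings, a Tn5 shift of reads and a thinning to equal depth. For each peak the authors deposited a position and a whole-number score, of unstated make and without read counts, so that depth is unknown.

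Peaks of all lists were merged where they overlapped, each region took its highest score per library, and strong regions at most 12500 bp apart were joined. Gene ends came from a RefSeq table of GRCm38.p6, the assembly mm10 names, with 49997 genes placed; it has no strand and only outer ends, so inner starts came from RefSeq start windows. No motif search was run in the members, since it needs a genome sequence. The members, gene lists and motifs were chosen with earlier results of these data known. Clusters named are the 20 with the most members, the 5 widest and the 5 of highest mean percentile; regions named are the 10 highest; genes named are list genes in or beside a cluster, up to 6 per list. Clusters named beside these, the 5 most variable members and the printed windows were chosen after their values were seen. Intervals are exact at 95% and cover counting error only. Alternatives were other gaps, thresholds, end distances, cluster sizes, mergings and libraries. Python 3.11.15, NumPy 2.4.6, pandas 2.3.3, SciPy 1.17.1 and Matplotlib 3.10.9 were used. Tested on constructed data, 200 of 200 made clusters were recovered.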

Additional observations from a re-analysis of the deposited data

How the results depend on the processing

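Of 162 values under 21 alternatives, 4 of them added after seeing the data, 114 stayed within the counting interval or 1.5 times the count reported, and 48 moved, given here. A gap of 5 kb gave 95 members in 21 clusters (1.33% of strong regions) with a median score of 40 at 25000 cells, and a gap of 25 kb gave 714 in 148 (10.03%). A score of 20 gave 531 members in 114 clusters (5.61%), member medians of 30, 35 and 32 at 25000, 50000 and 75000 cells against 24, 29 and 27 outside, and 69.1 weaker regions per Mb of span. A score of 35 gave 107 members in 24 clusters (2.71%), 60.7% of them inside genes, medians of 41, 52 and 47 against 36, 44 and 41, and 137.6 weaker regions per Mb. The threshold set in the library of 25000 cells gave 172 members in 37 clusters, of which 132 are members here. Set in the libraries of 50000 and 75000 cells, the threshold kept 171 and 161 of the 274 members, and a threshold on the mean percentile kept 194, so that counts near the one reported stand for partly different regions. A gene-end distance of 2.5 kb gave 138 members in 30 clusters (2.33%), 77.5% of them inside genes. Clusters of 3 or more numbered 192 with 670 members (9.41%) and 65.5 weaker regions per Mb, and clusters of 5 or more 20 with 114 (1.60%) and 110.8. The share of strong regions in clusters was 4.69% with the ends of coding genes only, 4.33% with peaks merged at 50% overlap, 3.29% without chromosome 19, 3.19% with the threshold scaled by chromosome and 3.19% without regions over an annotated start. With the scaled threshold 65.3% of members lay inside genes. Member medians were above those outside in 11 of 11 settings that gave them, by 5 to 12 at 25000 cells, 6 to 11 at 50000 and 5 to 11 at 75000. These settings share the same peaks and are not independent of one another. Medians were not computed for the settings that moved the threshold to another library or to the mean percentile. The number of members thus depends on the limits set, as their construction implies. A motif search in the central bases of members was not run. No paired analysis was possible because each cell number has 1 library. Depth is unknown, and a weaker region missing from a list may lie below its lowest score.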
